A study of Mus musculus with 21 samples.

Results

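Small nucleolar RNA (snoRNA) host genes were followed across 21 single-cell libraries of mouse CD8 T cells. The 9 genes were Snhg1, Snhg3, Snhg4, Snhg5, Snhg6, Snhg8, Snhg12, Snhg15 and Gas5, out of 17516 gene symbols, and all 9 had a row in every table. They were chosen by name as a class, with their levels in these libraries already known, so the levels below are a description and carry no test. Levels are given as CPM: the unique molecular identifiers (UMIs, each marking 1 captured RNA molecule) of a gene per 1000000 UMIs of its library. CPM values were not compared between genes.

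The cells were OT1 T cells, which carry a transgenic receptor for an ovalbumin peptide. Naive, untreated cells were sampled on day 0, and all other cells were first activated with beads bearing antibodies to CD3 and CD28. Activated cells were sampled without added cytokine on days 3 and 5. Cells given IL-2, IL-15 or IL-2v, at 5 or 50 IU/mL, were sampled on days 3, 5 and 10. Each of the 21 conditions was 1 library, so no difference below has a replicate check. IL-2v is labelled as a mutant ("mutant IL-2bg"), the other IL-2 as wild type. In 6 libraries, all at 50 IU/mL, title and treatment label differ: interleukin-3 is the label where the title has IL-2 (3 libraries), and interleukin-16 where it has IL-15 (3 libraries). Titles and design text were followed. The extraction text speaks of sorted tumour-infiltrating cells and the growth text of culture; cultured cells were assumed. Animal age and sex, and whether libraries came from separate animals, are not given in the sources used here, and day 7 was not analysed here.

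A snoRNA host gene carries snoRNAs in its introns, which are trimmed out of the spliced-off intron and guide chemical marks on ribosomal RNA. C/D box snoRNAs guide 2′-O-methylation and H/ACA box snoRNAs guide pseudouridylation. The spliced exons of the genes described here are thought to encode no protein. Such exonic RNA often begins with a pyrimidine tract, as mRNAs of ribosomal proteins do, is loaded on ribosomes and is degraded by nonsense-mediated decay, so that its level reflects decay and translation as well as transcription. Gas5, growth arrest specific transcript 5, is named for its accumulation in growth-arrested cells. The values below are for the host gene symbols, not for the snoRNAs.

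In the GENCODE vM21 annotation (GRCm38, the build named mm10 in the submitters' processing notes), every gene typed as snoRNA within 8 of the hosts lay in an intron of at least 1 transcript. The merged exons of Snhg1, Snhg8 and Snhg12 cover the whole gene, so their snoRNAs also lie within annotated exonic sequence of another transcript. Those of Gas5 (3760 bases) cover most of its gene, so some of its snoRNAs overlap such sequence too. Gas5 (chr1:161034422-161038539, plus strand) holds 9, of which 1 is named Mir5117, and Snhg1 (chr19:8723475-8726443, plus) holds 8. Snhg12 (chr4:132308623-132311024, plus) holds 4, and Snhg3 (chr4:132348014-132353686, minus) and Snhg5 (chr9:88521050-88522929, minus) hold 2 each. Snhg6 (chr1:9941959-9944118, minus), Snhg8 (chr3:123507552-123508404, minus) and Snhg15 (chr11:6525591-6528760, minus) hold 1 each. The position of Snhg4 is not described here. The following snoRNA genes, 1 for each of 4 hosts, show what these introns carry, written 5′ to 3′ with the C box and D box of a C/D box snoRNA, or the ACA box of an H/ACA box snoRNA, in capitals. Sequences are the GENCODE vM21 transcript sequences of these genes. Their GRCm38 positions are chr1:161038082-161038158 (plus) for Snord47, chr9:88521529-88521600 (minus) for Snord50a, chr1:9942463-9942549 (minus) for Snord87 and chr3:123507937-123508066 (minus) for Snora24.
Snord47, in Gas5: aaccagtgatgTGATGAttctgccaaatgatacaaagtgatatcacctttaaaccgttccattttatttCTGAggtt
Snord50a, in Snhg5: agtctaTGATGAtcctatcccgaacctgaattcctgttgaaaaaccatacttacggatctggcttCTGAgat
Snord87, in Snhg6: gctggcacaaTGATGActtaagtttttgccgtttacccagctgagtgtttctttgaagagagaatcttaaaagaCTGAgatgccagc
Snora24, in Snhg8: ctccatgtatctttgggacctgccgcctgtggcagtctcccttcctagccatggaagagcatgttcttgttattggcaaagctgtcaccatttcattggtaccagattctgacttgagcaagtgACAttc

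Start sites are shown for some of the members. RefSeq promoter entries (GRCm38.p6) were matched for 7 of the 9 genes, not for Snhg4 and Snhg6. The 90-base windows below, for 5 of these genes, run from 40 bases before the annotated start to 50 bases after it; of the 2 Gas5 entries, the downstream start is shown. TATAA on the same strand before the start is in capitals. So is the longest pyrimidine run, of at least 5 bases, that begins with C within 20 bases of the start. The upstream Gas5 entry has a run of 3 bases and no TATAA. The windows of Snhg3 and Snhg15, with runs of 5 and 4 bases and no TATAA before the start, are not shown. The windows are chr1:161035126-161035215 (plus) for Gas5, chr4:132308638-132308727 (plus) for Snhg12, chr3:123508287-123508376 (minus) for Snhg8, chr9:88522848-88522937 (minus) for Snhg5 and chr19:8723447-8723536 (plus) for Snhg1.
Gas5: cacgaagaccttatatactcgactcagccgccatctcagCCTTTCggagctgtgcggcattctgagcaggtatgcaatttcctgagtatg
Snhg12: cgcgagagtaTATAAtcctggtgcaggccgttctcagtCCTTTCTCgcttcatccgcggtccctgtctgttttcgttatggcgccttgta
Snhg8: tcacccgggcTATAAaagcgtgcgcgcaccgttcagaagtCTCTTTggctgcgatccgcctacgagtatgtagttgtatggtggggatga
Snhg5: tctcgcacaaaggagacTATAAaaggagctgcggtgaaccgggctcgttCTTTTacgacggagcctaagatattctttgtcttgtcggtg
Snhg1: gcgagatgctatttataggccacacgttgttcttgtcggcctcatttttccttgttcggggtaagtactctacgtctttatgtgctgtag

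TATAA 15 to 40 bases before the start was found in 3 of 7 genes (Snhg5, Snhg8 and Snhg12) and in 3.52% of 32851 RefSeq promoters. Such a pyrimidine run of at least 6 bases was found in 3 of 7 (Gas5, Snhg8 and Snhg12) and in 32.5% of promoters. Counted by promoter entry, both were found in 3 of 8 member entries, as the other Gas5 entry lacks the run. Over the whole 300-base entries, both strands, TGACG was found in 4 of 7 genes against 20.8% of promoters, and CACGTG in 1, Snhg15, against 7.15%. TTCNNNGAA, the core letters of a STAT site, was in 0 of 7 and in 8.30% of promoters. These are matches of letters in these windows.

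After filtering, a library held 3250 to 7105 cells and 10589950 to 32648496 UMIs, with a median of 3016 to 5065 UMIs per cell. Counting error was therefore small: Snhg5, the gene with the fewest UMIs, had 249 to 1203 per library, and Gas5 had 13533 to 41282. Intervals below are exact Poisson 95% intervals and cover counting error only. The 6 T cell markers summed to 2238 to 5519 CPM, Cd4 reached at most 4.39 CPM and the 4 B cell markers at most 17.8 CPM. The 5 myeloid markers summed to 62.6 to 129 CPM, the 3 measured erythroid markers to at most 3.15 CPM and the 2 NK cell markers to at most 36.7 CPM. Of the myeloid markers, Cst3 stood at 61.0 to 126 CPM and Itgam at up to 4.54 CPM. Lyz2, Cd14 and Csf1r reached at most 0.623 CPM. The highest NK cell value was nearly all Klrb1c, with Ncr1 at most 0.0336 CPM. The part of these markers in the results was not tested. Pairs of libraries shared 1 to 19 cell barcodes, at most 0.340% of the smaller library. Cells called cycling here had at least 1 UMI of the proliferation genes Mki67 or Top2a. They made up 3.01% of naive cells, 59.96% without cytokine on day 3, and 86.9% with 50 IU/mL IL-2v on day 3. On day 10 they made up 5.21% at the lower dose of IL-15. The share of cycling cells moves with several values below; its part in them was not tested. Values in non-cycling cells, those with no UMI of either gene, are given beside some results; such cells can still include cycling cells whose Mki67 and Top2a were not captured.

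Across the 21 libraries the hosts had different ranges. Snhg6 ran from 38.6 to 326 CPM (median 119), an 8.45-fold range, and Snhg5 from 9.70 to 64.8 CPM (median 23.4), a 6.68-fold range. The other 7 spanned 2.58-fold (Snhg15) to 4.32-fold (Snhg4). The SD of log2(CPM + 1) over libraries was 0.82 for Snhg6 and 0.81 for Snhg5, above 91.3% and 90.8% of the 5495 genes whose mean reached 20 CPM. It was 0.43 to 0.50 for the other 7, against a median of 0.35 over those genes. Snhg5 reached 20 CPM in 13 libraries, and every other member reached it in all 21.

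**Figure D1:**
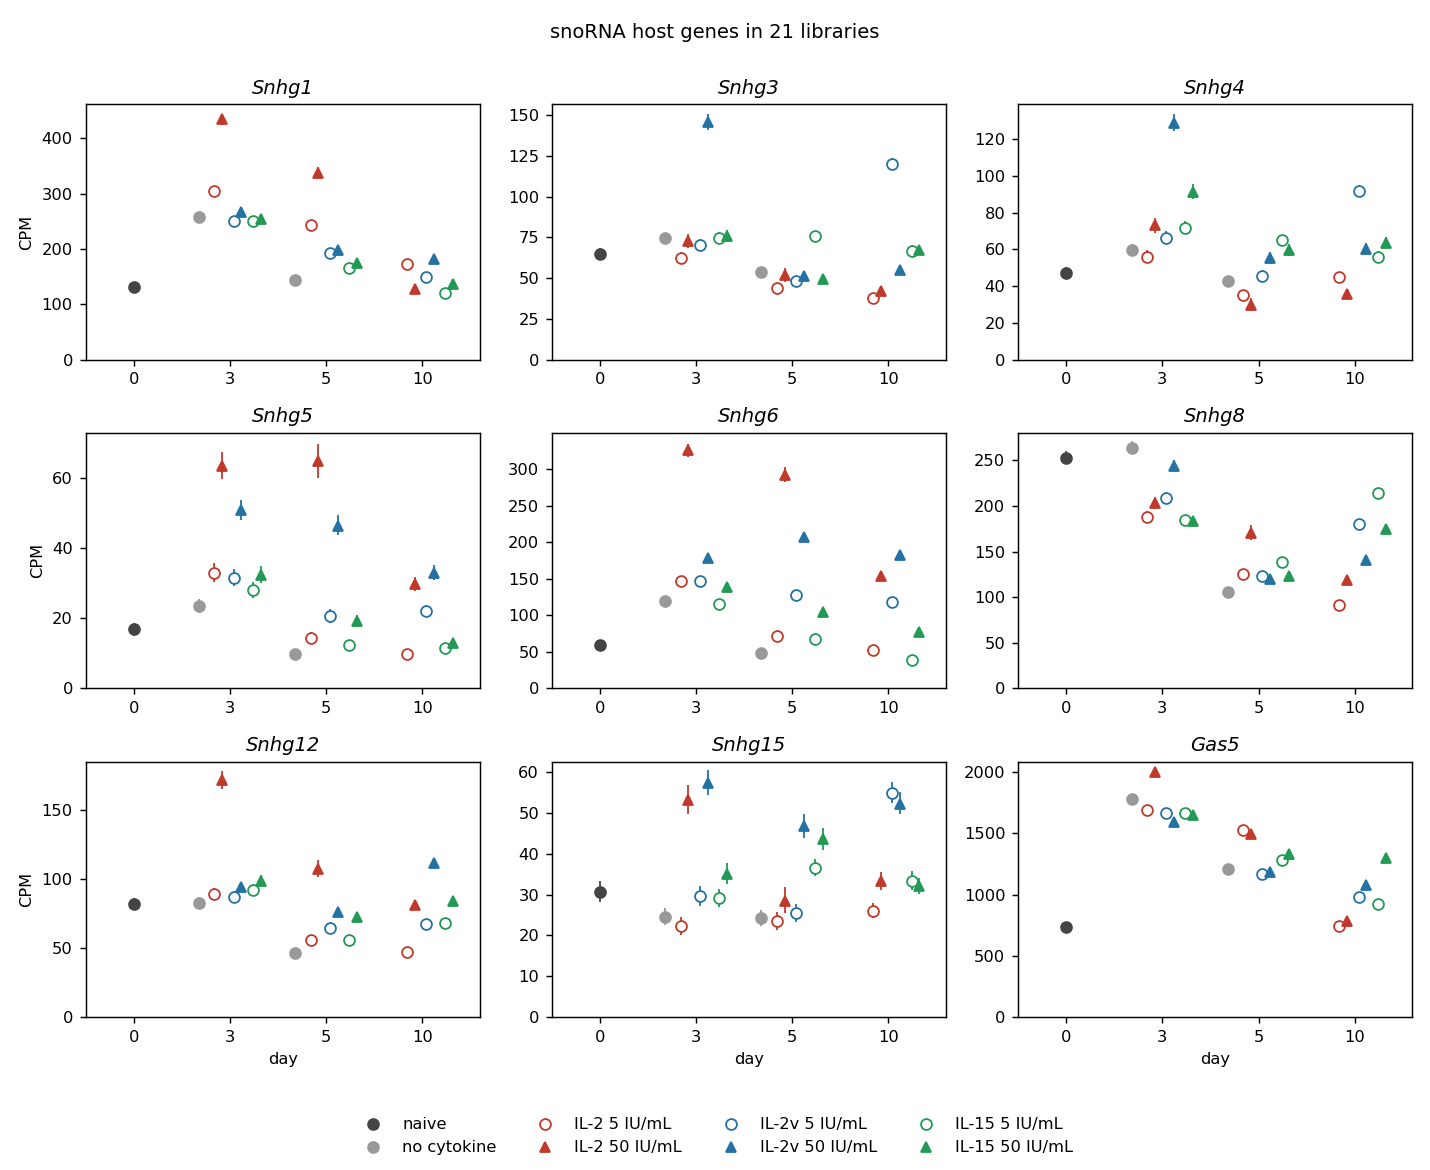
CPM (linear axes from 0) of each snoRNA host gene by day, 1 point per library, with exact Poisson 95% intervals that cover counting error only; colours mark the cytokine, open circles 5 IU/mL and triangles 50 IU/mL. Snhg5 and Snhg6 are highest with 50 IU/mL IL-2 on days 3 and 5, Snhg3 and Snhg4 are highest with 50 IU/mL IL-2v on day 3 and 5 IU/mL IL-2v on day 10, and Gas5 is lowest in naive cells.

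Activation was described by the day 3 library without cytokine against naive cells. Gas5 stood at 733 CPM (721 to 745) in naive cells and 1782 CPM (1764 to 1799) after activation, 2.43-fold higher. It was the 1 member called, where a call is a difference of at least 1 in log2(CPM + 1), among 9 tested; 11.1% of 6171 genes were called higher and 8.31% lower. The contrast is one of those known when the genes were chosen, so nothing is read from this count. Snhg1 went from 131 to 258 CPM and Snhg6 from 59.4 to 119 CPM, log2 differences of 0.98 and 0.99. Those fell just short of the call, and both genes passed it under trimmed-mean (TMM) scaling, at 1.03 and 1.05, and in non-cycling cells, at 1.37 and 1.23. Snhg12 (81.4 and 82.6 CPM) and Snhg8 (253 and 264 CPM) differed by 0.02 and 0.06. Snhg15 was lower after activation, at 24.4 against 30.6 CPM. Thus Gas5, Snhg1 and Snhg6 were higher while Snhg8 and Snhg12 were nearly level; the median of all genes was −0.11.

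Without cytokine, Snhg5, Snhg6 and Snhg8 were called lower on day 5 than on day 3. Snhg8 went from 264 to 105 CPM (log2 −1.32), Snhg6 from 119 to 49.0 CPM (−1.27) and Snhg5 from 23.4 to 9.70 CPM (−1.19). These 3 of 9 members were called, where 9.47% of 5785 genes were called lower and 3.61% higher. Snhg5 fell short with a pseudocount of 10 CPM, at −0.76. It was under 20 CPM on day 5 and tested only through day 3, so it could be called only lower. Snhg1 (258 to 143 CPM) and Snhg12 (82.6 to 46.4 CPM) stood at −0.84 and −0.82, and passed the call in non-cycling cells, at −1.19 and −1.02. Gas5 went from 1782 to 1210 CPM (−0.56), and Snhg15 was level at 24.4 and 24.2 CPM. Cycling cells went from 59.96% to 13.8% over this step. In non-cycling cells the differences were −1.25 for Snhg5, −1.49 for Snhg6 and −1.51 for Snhg8.

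Each cytokine was then set against the library without cytokine of its day. The 6 comparisons of a day share that 1 library, so their calls were not set against each other.

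Snhg5, Snhg6, Snhg12 and Snhg15 were called higher with 50 IU/mL IL-2 on day 3. Snhg6, host of Snord87, stood at 326 CPM (317 to 335) against 119 CPM, log2 1.44. Snhg5, host of Snord50a, stood at 63.6 CPM (59.8 to 67.5) against 23.4 CPM, 1.40. Snhg15 at 53.1 against 24.4 CPM (1.09) and Snhg12 at 171 against 82.6 CPM (1.04) also passed, and Snhg1 (435 against 258 CPM) stood at 0.75. These were 4 of 9 members, where 6.45% of 6030 genes were called higher and 2.74% lower. The calls of Snhg12 and Snhg15 ended under TMM scaling (0.90 and 0.95) and with totals that leave out ribosomal protein and mitochondrial genes (0.94 and 0.995) and with a pseudocount of 10 CPM (0.97 and 0.87), and the median of all genes was 0.19.

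Snhg4, Snhg5 and Snhg15 were called higher with 50 IU/mL IL-2v on day 3, and Snhg3 stood just short. Snhg3, host of 2 Snora73 copies, stood at 146 CPM (141 to 151) against 74.2 CPM (log2 0.96), and Snhg4 at 129 CPM (124 to 134) against 59.5 CPM (1.10). Snhg15 was at 57.4 against 24.4 CPM (1.20), and Snhg5 at 50.9 against 23.4 CPM (1.09). The calls were 3 of 9, where 7.83% of 6069 genes were called higher and 1.75% lower. Snhg1 (266 CPM), Snhg12 (93.9 CPM) and Gas5 (1597 CPM) differed by 0.04, 0.18 and −0.16 from the library without cytokine. The calls of Snhg4 and Snhg5 ended under TMM scaling (0.92 and 0.91) and with totals that leave out ribosomal protein and mitochondrial genes (both 0.99), and Snhg5 stood at 0.53 in non-cycling cells, while Snhg3 passed the call there at 1.11. With a pseudocount of 10 CPM, Snhg15 stood at 0.97 and Snhg5 at 0.87, and Snhg4, essentially at the threshold of 1, was just short of the call. This library had the highest share of cycling cells.

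At the other day 3 conditions 0 members were called. That held for 5 IU/mL IL-2 (0.248% of genes called in either direction), 5 IU/mL IL-2v (0.282%), 5 IU/mL IL-15 (0.427%) and 50 IU/mL IL-15 (1.08%). With 50 IU/mL IL-15 the farthest were Snhg4, at 91.3 against 59.5 CPM (0.61), and Snhg8, at 183 against 264 CPM (−0.52). Snhg8 stood at 183 to 244 CPM in the 6 cytokine libraries of day 3 and at 120 to 171 CPM in those of day 5. The no-cytokine libraries lay outside both ranges, at 264 CPM on day 3, rank 1 of the 21 libraries, and 105 CPM on day 5, rank 20; each is 1 library that all 6 comparisons of its day share.

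On day 5, Snhg5 and Snhg6 had the 2 largest differences of the 9 members at 50 IU/mL of each cytokine and with 5 IU/mL IL-2v. With 5 IU/mL IL-2 or 5 IU/mL IL-15, other members differed by more. All these comparisons share the library without cytokine, which was rank 21 of the 21 libraries for Snhg5 and rank 20 for Snhg6. Agreement between them is therefore not repeated evidence. Snhg5 stood at 64.8 CPM (60.02 to 69.8) with 50 IU/mL IL-2 and 46.5 CPM with 50 IU/mL IL-2v, against 9.70 CPM (8.53 to 10.98) without cytokine, log2 2.62 and 2.15. Snhg6 stood at 292 CPM (282 to 303) and 207 CPM, against 49.0 CPM, log2 2.55 and 2.06. With 50 IU/mL IL-15 they stood at 19.1 and 105 CPM (0.91 and 1.08), and with 5 IU/mL IL-2v at 20.6 and 128 CPM (1.01 and 1.37).

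With 50 IU/mL IL-2, Snhg1 (337 against 143 CPM, 1.23) and Snhg12 (107 against 46.4 CPM, 1.19) were called as well, making 4 of 9 members where 16.5% of 6022 genes were called higher and 7.54% lower. On the scale of mean UMIs per cell, an alternative chosen after seeing the data, those 2 calls ended (0.86 and 0.82). This IL-2 library had the fewest cells (3250), the fewest UMIs (10589950), the lowest median UMIs (3016) and genes (1271) per cell and the lowest mitochondrial share (2.91%) of the 21; the part of these in the result was not tested. With 50 IU/mL IL-2v, Snhg5 and Snhg6 were the 2 of 9 called, where 21.1% of genes were called higher and 5.53% lower, and the median of all genes was 0.30; in non-cycling cells Snhg15 passed as well, at 1.01. With 5 IU/mL IL-2v, they were again 2 of 9, with 9.75% of genes higher and 2.62% lower; the call of Snhg5, at 1.01, ended under 7 alternatives, at 0.63 with a pseudocount of 10 CPM, 0.68 in non-cycling cells and 0.87 under TMM scaling. With 50 IU/mL IL-15, Snhg6 was 1 of 8 tested members, with 5.82% higher and 1.9% lower, and stood short of the call under TMM scaling (0.99) and with a pseudocount of 10 CPM (0.96). With 5 IU/mL IL-2 (2.5% of genes called in either direction) and 5 IU/mL IL-15 (1.74%), 0 of 8 tested members were called. Snhg5 was under 20 CPM in both libraries of each of these 3 comparisons. In the comparisons of this day where Snhg5 was called, it was tested only through the cytokine library, being under 20 CPM without cytokine. Snhg5 could therefore be called only higher there. Gas5 stood within 0.34 of the no-cytokine library at each of the 6 day 5 conditions.

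The dose of IL-2 separated Snhg5 and Snhg6 on every day. From 5 to 50 IU/mL, Snhg5 went from 33.0 to 63.6 CPM on day 3, from 14.3 to 64.8 CPM on day 5 and from 9.81 to 29.8 CPM on day 10. Snhg6 went from 147 to 326, from 71.0 to 292 and from 52.7 to 154 CPM. The median log2 differences were 1.51 and 1.53, and these 2 of 9 members were called, where 4.29% of 5879 genes were called higher and 2.7% lower with the same sign on all 3 days. Snhg5 averaged under 20 CPM at 5 IU/mL, so it was tested only through 50 IU/mL and could be called only higher. Both calls held at each alternative run, at 1.01 to 1.81 for Snhg5 and 1.34 to 1.84 for Snhg6; in non-cycling cells they stood at 1.46 and 1.54, and without day 5, which leaves out the 50 IU/mL library with the fewest UMIs, at 1.22 and 1.34. Snhg12, host of 4 snoRNAs, was higher on all 3 days too (88.6 to 171, 55.9 to 107 and 46.9 to 80.6 CPM), with a median of 0.93; on the scale of mean UMIs per cell it passed the call, at 1.01. Snhg15 was higher on all 3 days, from 22.3 to 53.1 CPM on day 3 (1.22, above Snhg6 and Snhg5 on that day), from 23.5 to 28.5 on day 5 and from 26.1 to 33.4 on day 10, a median of 0.34. Snhg1 was higher at 50 IU/mL on days 3 and 5 (305 to 435 and 242 to 337 CPM) and lower on day 10 (172 to 128 CPM). Gas5 differed by 0.24, −0.03 and 0.08 on days 3, 5 and 10.

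Between doses of the other cytokines 0 members were called, for IL-2v (3.01% of genes called in either direction) and for IL-15 (1.05%). With IL-2v, Snhg15 had the largest median of the members, 0.85, at 29.6 and 57.4 CPM on day 3, 25.4 and 46.7 on day 5 and 54.9 and 52.3 on day 10. Snhg5 with IL-2v was at 31.5 and 50.9 CPM on day 3, 20.6 and 46.5 on day 5 and 22.0 and 32.9 on day 10, a median of 0.68. Snhg6 had a median of 0.62 with IL-2v (147 to 178, 128 to 207 and 118 to 182 CPM) and 0.63 with IL-15 (115 to 139, 67.5 to 105 and 38.6 to 77.1 CPM). Snhg5 with IL-15 was at 28.0 and 32.4 CPM on day 3, 12.5 and 19.1 on day 5 and 11.6 and 12.9 on day 10. So Snhg5, Snhg6 and Snhg12 were higher at 50 than at 5 IU/mL in all 9 pairs of each, as were 4.65% of 5760 genes. Snhg3 had no common direction: with IL-2v it was higher at 50 IU/mL on day 3 (70.2 to 146 CPM) and lower on day 10 (120 to 55.0 CPM), differences of 1.04 and −1.11. Snhg4 did likewise, with 66.3 to 129 CPM on day 3 and 91.8 to 60.3 CPM on day 10.

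**Figure D2:**
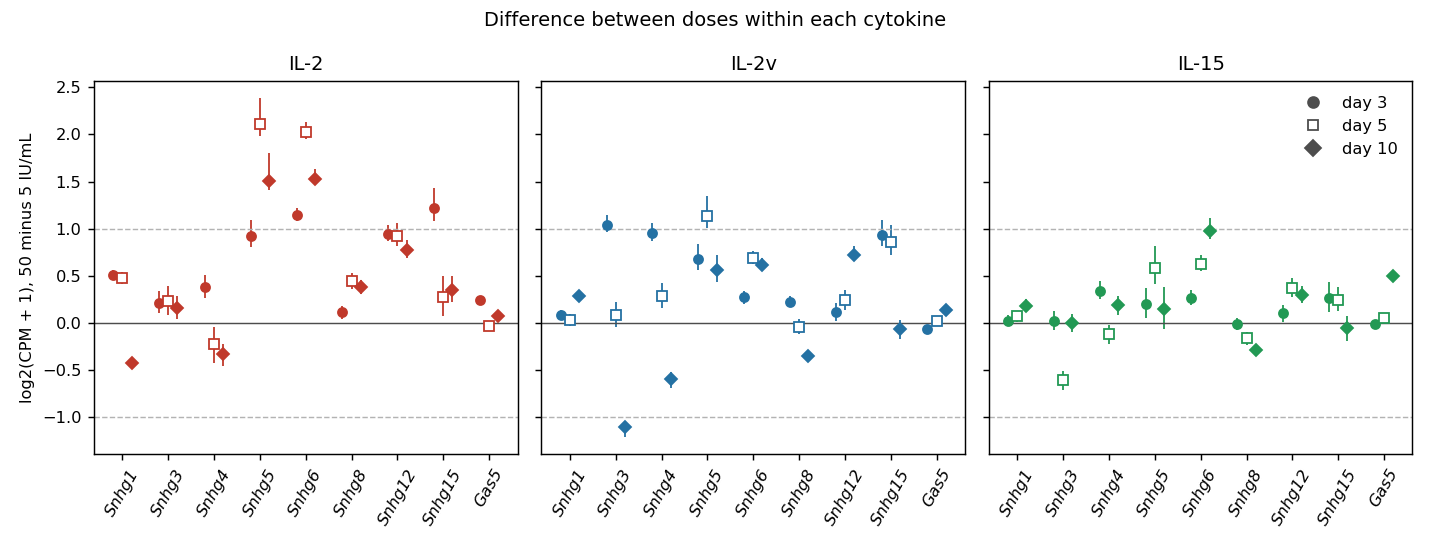
Difference of log2(CPM + 1) between 50 and 5 IU/mL for each gene on days 3, 5 and 10, 1 panel per cytokine; vertical lines are counting 95% intervals of the CPM ratio without the pseudocount and dashed lines mark 2-fold. With IL-2, Snhg5 and Snhg6 have the largest medians over the 3 days, 1.51 and 1.53, while on day 3 Snhg15 lies above both at 1.22; Snhg3 with IL-2v lies at 1.04 on day 3 and −1.11 on day 10.

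Cytokines were set against each other in 6 pairs of equal day and dose, and 0 of 9 members met the call in each comparison. The share of genes called was 1.32% for IL-2v against IL-2, 2.19% for IL-15 against IL-2 and 3.06% for IL-2v against IL-15. Some members kept 1 direction below the call. Among all genes, 17.0% were higher with IL-2v than with IL-2 in every pair, 7.68% higher and 9.58% lower with IL-15 than with IL-2, and 19.1% higher with IL-2v than with IL-15. In the same order, 2, 1, 1 and 3 of 9 members were. The first 3 of these counts lie near the shares, and nothing is read from the counts. Snhg4 was higher with IL-2v than with IL-2 in 6 of 6 pairs (0.24 to 1.01, median 0.78) and higher with IL-15 than with IL-2 in 6 of 6 (0.31 to 0.98, median 0.59). Snhg15, host of Snora9, was higher with IL-2v than with IL-2 in 6 of 6 pairs (0.11 to 1.05, median 0.51). Snhg6 was lower with IL-15 than with IL-2 in 6 of 6 pairs (median −0.71) and higher with IL-2v than with IL-15 in 6 of 6 (0.36 to 1.59, median 0.94). Snhg5 was higher with IL-2v than with IL-15 in 6 of 6 (0.16 to 1.29, median 0.78), and so was Snhg1, by less (0.0035 to 0.41, median 0.20). The smallest Snhg1 difference, on day 3 at 5 IU/mL (251.1 against 250.5 CPM), was within counting error. Without day 3, Snhg5 and Snhg6 passed the call of IL-2v against IL-15, at 1.06 and 1.10. Leaving out a day was planned for the dose comparisons and those between cytokines. Gas5 went both ways, at −0.39 to 0.46 for IL-2v against IL-2 (median −0.17), −0.27 to 0.72 for IL-15 against IL-2 (−0.10) and −0.26 to 0.10 for IL-2v against IL-15 (−0.09).

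The pair of day 10 at 5 IU/mL is given in full because it holds the widest difference of Snhg3 and was chosen after its values were seen. Over the 6 pairs members went both ways, with Snhg1 higher with IL-2v in 1, Gas5 in 2 and Snhg5 and Snhg12 in 3 each. In this pair Snhg3 was at 37.6 CPM in the IL-2 library (35.5 to 39.9), against 120 CPM for IL-2v (116 to 124), log2 1.64. Snhg6 stood at 118 and 52.7 CPM (1.15), Snhg5 at 22.0 and 9.81 CPM (1.09), Snhg15 at 54.9 and 26.1 CPM (1.05) and Snhg4 at 91.8 and 45.1 CPM (1.01). Snhg8 stood at 180 and 91.5 CPM (0.97), Snhg12 at 66.9 and 46.9 CPM (0.50) and Gas5 at 983 and 744 CPM (0.40). Snhg1 went the other way, at 150 and 172 CPM. The share of all genes past 2-fold in this 1 pair was not computed, so nothing is read from how many members passed it. Cycling cells made up 40.6% of the IL-2v library and 18.2% of the IL-2 library.

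Over culture time with cytokine, Snhg1 and Gas5 were lower on each later day in 6 of 6 pairs, and the other members went different ways. Between days 5 and 3, 0 members were called (3.04% of genes called in either direction), but Snhg1, Snhg4, Snhg8, Snhg12 and Gas5 were lower on day 5 in 6 of 6 pairs, by medians of −0.40 to −0.63; so were 27.0% of genes, and the median of all genes was −0.10. Between days 10 and 5, 0 members were called (1.69%), and Snhg1, Snhg6 and Gas5 were lower in 6 of 6, as were 10.1% of genes. Over that step Snhg4 was higher on day 10 in 5 of 6 pairs (median 0.18), Snhg8 in 4 (0.37), Snhg12 in 4 (0.14) and Snhg15 in 4 (0.15), while Snhg3 was higher in 3 and lower in 3. Between days 10 and 3, Snhg5 was the 1 of 9 called, at a median of −1.14 and lower in 6 of 6 pairs, where 7.98% of 5977 genes were called lower and 0.87% higher. That call ended under TMM scaling (−0.80), in non-cycling cells (−0.98) and with a pseudocount of 10 CPM (−0.85), and the median of all genes was −0.17. Snhg5 averaged just under 20 CPM on day 10, so it was tested only through day 3 and could be called only lower. In non-cycling cells 2 other members passed the call, Snhg1 at −1.12 (−0.86 in all cells) and Snhg6 at −1.10 (−0.96 in all cells, lower in 5 of 6 pairs). Snhg1 and Gas5 (−0.81) were lower on day 10 than on day 3 in 6 of 6 pairs. With Snhg5 these were 3 of 9 members, near the 28.1% of genes with that direction, so nothing is read from the count. On day 10, Gas5 stood at 744 and 784 CPM with 5 and 50 IU/mL IL-2, near its 733 CPM in naive cells, at 983 and 1078 CPM with IL-2v and at 920 and 1296 CPM with IL-15. Snhg15 was higher on day 10 than on day 3 in 3 of 6 pairs (median 0.03).

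Some pairs of members varied alike over the 21 libraries, without forming separate sets. The points share cell type, normalization and, apart from the naive library, activation, so correlations of log2(CPM + 1) are a description without a test. Snhg5 and Snhg6 had Pearson's r = 0.96 and Spearman's rho = 0.95, and without the 2 libraries with the most extreme Snhg5, r = 0.94. Snhg12 had r = 0.82 with Snhg5 and 0.78 with Snhg6. Snhg3 and Snhg4 had r = 0.85 (rho = 0.86), and 0.75 without the 2 libraries farthest in Snhg3. These 2 genes were highest in the IL-2v libraries of day 3 at 50 IU/mL and day 10 at 5 IU/mL. Snhg1 and Gas5 had r = 0.82 (rho = 0.83), and 0.82 without the 2 libraries farthest in Snhg1. Over other pairs r ranged widely. It was 0.17 for Snhg3 with Snhg6, 0.24 for Snhg4 with Snhg5 and −0.01 for Snhg15 with Gas5. It was 0.72 for Snhg1 with Snhg5 and 0.71 for Snhg3 with Snhg8. Snhg1 with Snhg5 stood at 0.57 without the 2 libraries farthest in Snhg1. Without the 2 libraries farthest in Snhg3, Snhg3 with Snhg8 stood at 0.79, above the 0.75 of Snhg3 with Snhg4. The median over the 36 pairs was 0.43.

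**Figure D3:**
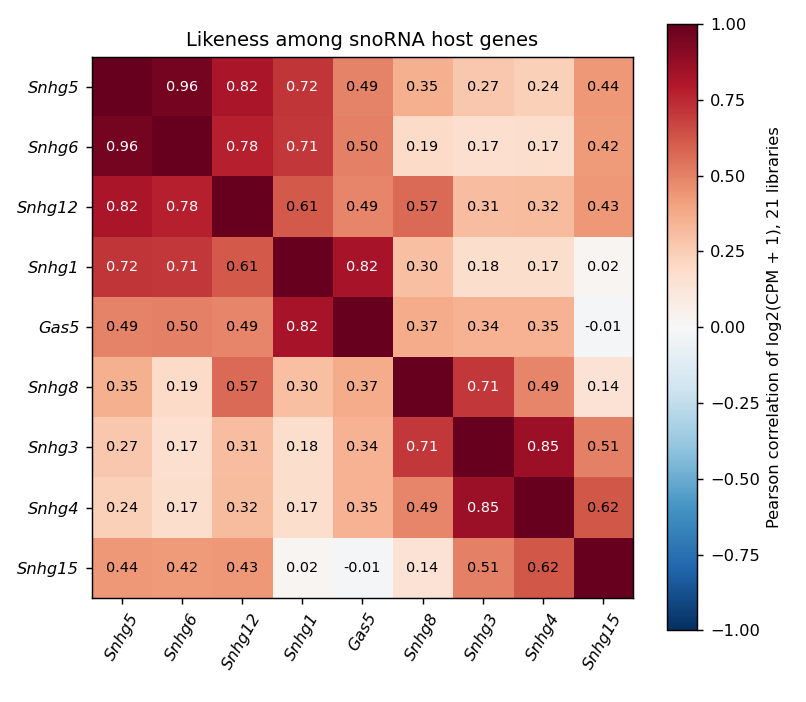
Pearson correlation of log2(CPM + 1) over 21 libraries for each pair of snoRNA host genes, from blue (−1) to red (1). Snhg5, Snhg6 and Snhg12 form a block of 0.78 to 0.96, Snhg3 and Snhg4 stand at 0.85, and Snhg15 and Gas5 at −0.01.

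**Figure D4:**
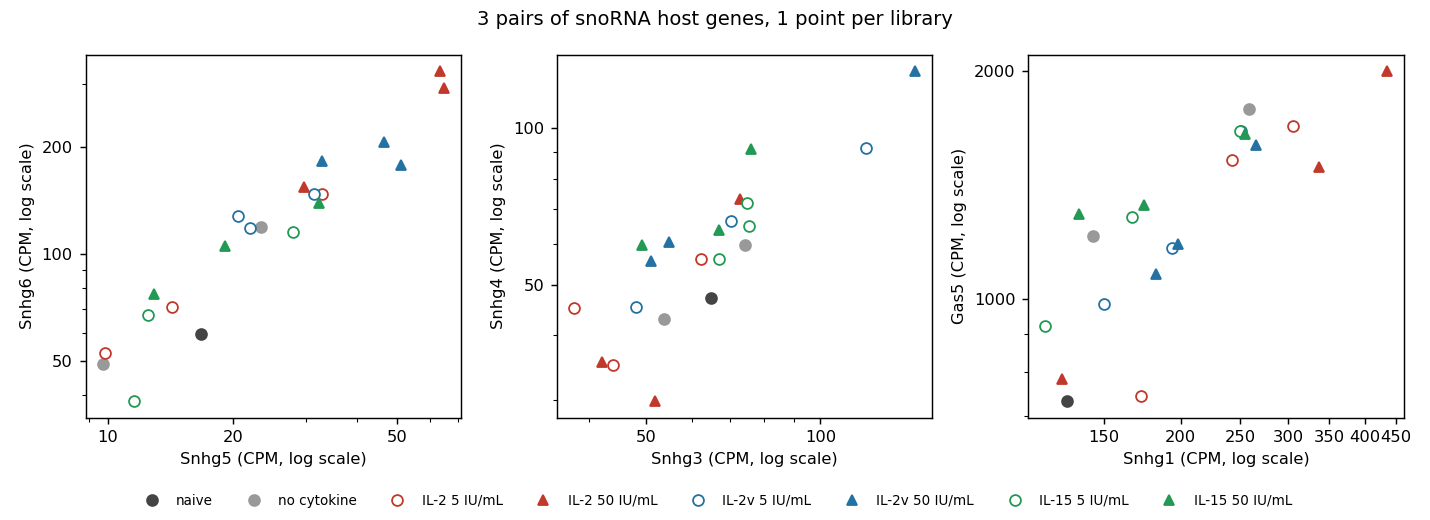
CPM (log axes) of 3 pairs of snoRNA host genes, 1 point per library, coloured by cytokine, with triangles for 50 IU/mL. Snhg5 and Snhg6 are low without cytokine on day 5 and with 5 IU/mL IL-2 or IL-15 on day 10, and highest with 50 IU/mL IL-2 on days 3 and 5, while Snhg3 and Snhg4 are highest with 50 IU/mL IL-2v on day 3.

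The share of cycling cells varied with some hosts over the 21 libraries. Pearson's r with it was 0.81 for Snhg1, 0.79 for Snhg5, 0.75 for Snhg6 and 0.73 for Gas5, and 0.28 for Snhg15. With the ribosomal protein share of UMIs, which was 27.7% to 42.8%, r was −0.71 for Snhg5 and −0.68 for Snhg6; its part was not tested. Within a library the picture differed. Gas5 was lower in cycling than in other cells in 21 of 21 libraries, by a median log2 of −0.27; in the naive library it stood at 571 CPM in cycling and 739 CPM in other cells, and on day 3 without cytokine at 1638 and 2089 CPM. Snhg6 and Snhg12 were lower in cycling cells in 20 of 21 libraries (medians −0.21 and −0.24), Snhg8 in 19 (−0.09) and Snhg1 in 18 (−0.35). Snhg5 was the reverse, higher in cycling cells in 20 of 21 libraries (median 0.34). Some of these signs rest on small differences or few UMIs. Without cytokine on day 5, Snhg5 stood at 9.94 CPM in cycling (47 UMIs) and 9.64 CPM in other cells, and naive cycling cells had 17 Snhg5 UMIs. With 5 IU/mL IL-15 on day 10, Gas5 differed by −0.03. Snhg3 (0.05), Snhg4 (−0.05) and Snhg15 (−0.11) had mixed directions. The 7 members with a median below 0 compare with 38.9% of 5495 genes, and the 2 above 0 with 61.1%; the median over those genes was 0.06. Thus Snhg5 and Snhg6, alike over libraries, stood on opposite sides of this split. With totals that leave out ribosomal protein and mitochondrial genes, 1 member, Snhg5, stayed above 0.

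**Figure D5:**
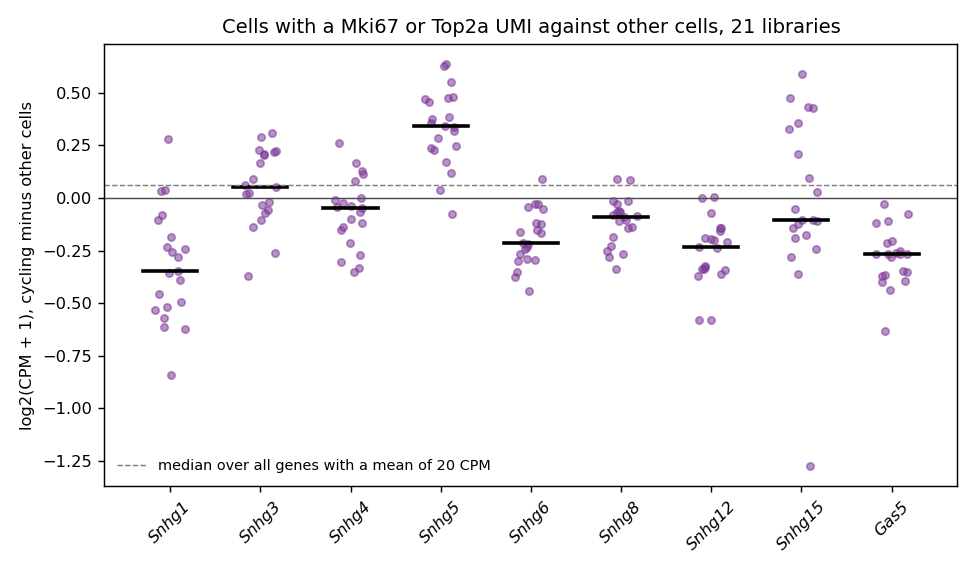
Difference of log2(CPM + 1) between cells with a Mki67 or Top2a UMI and other cells, 1 point per library (21 per gene); bars are medians and the dashed line is the median over 5495 genes. Gas5 is below 0 in all 21 libraries and Snhg5 above 0 in 20; the lowest Snhg15 point, −1.27, is the naive library, which had 9 Snhg15 UMIs in cycling cells.

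In single cells thinned to 2000 UMIs each, at least 1 UMI of a member was seen in a median of 96.9% of cells per library. Gas5 was seen in 74.5% (73.1% to 75.7%, exact Clopper-Pearson 95% interval) of naive cells and in 94.95% with 50 IU/mL IL-2 on day 3. Snhg6 was seen in 12.9% of cells with 5 IU/mL IL-2 on day 5 and 42.6% with 50 IU/mL (unthinned 24.6% and 55.7%). Snhg5 was seen in 2.57% and 11.2% of the same cells (unthinned 5.66% and 17.7%). Snhg5 counts per cell had a variance close to their mean in every library, with a ratio of 0.983 to 1.09. For Gas5 the ratio was 1.14 to 1.83. Per library, Snhg5 was seen in 1.75% to 11.4% of cells and Gas5 in 74.5% to 94.95%. With so few Snhg5 counts per cell, its ratio can lie near 1 even where cells differ. The ratio therefore cannot show how evenly Snhg5 was spread over cells, and nothing is read from its contrast with Gas5. No cell type lacking these genes was present to set a background share, and the 75 and 393 cells of these IL-2 libraries with fewer UMIs were left out.

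Related genes were described from lists chosen with earlier results of these data known. Among 6 tested noncoding hosts outside the members, activation, with 11.1% of all genes called higher and 8.31% lower, had 1 called higher, Zfas1 (137 to 440 CPM, log2 1.67), and 1 lower, Snhg17 (24.9 to 11.3 CPM, −1.08), with a median of −0.38 against −0.11 over all genes. Between days 10 and 3 with cytokine, Snhg9 was the 1 of 7 called, at −1.88, where 7.98% of all genes were called lower. It stood at 8.20 and 8.14 CPM with 5 and 50 IU/mL IL-2 on day 10 and at 10.2 CPM with 50 IU/mL IL-2v, and at 51.9 to 109 CPM in the other 18 libraries. The 23 ribosomal protein genes that host snoRNAs had 0 called on activation (median −0.11), 0 on the day 5 step without cytokine and 0 over the IL-2 dose (median −0.06), where 4.29% of all genes were called higher and 2.7% lower. Genes of the snoRNP machinery, which binds and matures snoRNAs, had 6 of 17 higher with 50 IU/mL IL-2 on day 3 (median 0.78, highest Naf1 at 1.34), where 6.45% of all genes were called higher and their median was 0.19. With 50 IU/mL IL-2v, 10 of 17 were higher (median 1.01, highest Nolc1 at 2.29), where 7.83% of all genes were and their median was 0.21. On day 5 with 50 IU/mL IL-2, 0 of 15 were higher and 3 lower (median −0.30, lowest Nop10 at −1.89), where 16.5% of all genes were called higher and 7.54% lower. With IL-2v at that dose and day, 6 of 16 were higher and 0 lower (median 0.69, highest Nop56 at 1.64), where 21.1% of all genes were called higher. Of 9 tested nonsense-mediated decay factors, 2 were lower on activation (median −0.45, lowest Smg5 at −1.16), and 0 of 8 were called over the IL-2 dose. Of 12 other protein-coding hosts, 3 were higher (highest Hspa8, 1.29) and 2 lower (lowest Tpt1, −1.10) on activation. Of 16 other mRNAs with a terminal pyrimidine tract, 3 were higher (highest Nap1l1, 1.42) and 1 lower, again Tpt1. Of 5 long noncoding RNAs from a separate list, Malat1 was lower (−1.37).

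Genes most like the mean profile of the members were sought among 5486 genes whose mean reached 20 CPM. They were Ipo5 (r = 0.92), Taf1d (0.91), Shmt2 (0.91), Pabpc4 (0.90) and Ipo7 (0.90). In GENCODE, Taf1d holds 8 intronic snoRNAs, and Pabpc4 and Ipo7 hold 2 each, while Ipo5 and Shmt2 hold 0. Over all genes outside the members the median r with this profile was 0.19. It was −0.34 for the 30 ribosomal protein genes with an intronic snoRNA and 0.43 for the 119 other such hosts, sets chosen after seeing the data. The least like were 1300002E11Rik (−0.94), Rinl (−0.91) and Smap2 (−0.90). Most like Gas5 alone were Serf1 (0.86), Ptprs (0.85), 1110038B12Rik (0.84), which holds 2 intronic snoRNAs, Ctla4 (0.84) and Mrpl1 (0.83).

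Some rows share sequence with other genes. Snhg5 matches 9330159M07Rik over 233 bases at 96.1% identity and 9430037G07Rik at 95.7%. Reads from this stretch could be assigned to another row or left uncounted. Those rows reached at most 1.44 and 0.377 CPM, which does not measure reads left uncounted. Snhg3 shares 71.5% of its exonic bases with Gm17300 on the opposite strand (at most 1.17 CPM) and 13.7% with Rcc1 on the same strand (5.89 to 47.8 CPM). Snhg6 shares 11.1% with Mcmdc2 on the opposite strand (at most 0.589 CPM). Whether counting used the strand is not given in the sources used here.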

How the data were processed

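The authors deposited 1 table per library of raw UMI counts, whole numbers per gene symbol and cell barcode. The submitters' processing notes name Cell Ranger, Seurat 3.0.2 and 4.0.1 and the build mm10; cell filters, annotation and doublet removal are not given in the sources used here. Cells under 1000 UMIs or 500 genes, or over 10% mitochondrial UMIs, were left out (2 of 106458). Counts were summed per library and scaled to CPM (Python 3.11.15, numpy 2.4.6, pandas 2.3.3, scipy 1.17.1). A gene was tested where its mean reached 20 CPM in either arm of a comparison. A gene under 20 CPM in 1 arm was thus tested only through its higher arm and could be called in only 1 direction. It was called past 2-fold on the log2(CPM + 1) scale, which understates low genes; comparisons of several pairs also needed the same sign in all pairs. With 1 library per condition there was no replicate spread, so differences carry no test; a model across day, dose and cytokine was not fitted. The call rule was run on simulated Poisson counts with 3-fold or 4-fold changes and no spread between libraries beyond counting. It recovered 100% of the tested changed genes and called 0% of the unchanged ones. Such changes lie well past the 2-fold rule, so this outcome was nearly fixed in advance. It says nothing on spread between libraries.

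The members and lists were chosen with earlier results of these data known. All 9 members were named, the highest and lowest gene of a described list, and the 5 most and 3 least alike genes by correlation (5 for Gas5). Zfas1, Snhg17 and Snhg9 are such list genes. Alternatives were TMM scaling (edgeR 4.0.16), other totals, single-cell means, stricter cell filters, non-cycling cells, a pseudocount of 10 CPM, no expression filter and each day left out; mean UMIs per cell was added after seeing the data. Promoters came from RefSeq and gene models from GENCODE. Doublets were not called; leaving out cells with over 2 times their library's median UMIs was an alternative.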

Additional observations from a re-analysis of the deposited data

Results flagged for a closer look

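Snhg8 differed between doses in opposite directions with 2 cytokines. From 5 to 50 IU/mL it was higher on all 3 days with IL-2, by a median log2 difference of 0.379, and lower on all 3 days with IL-15, by a median of −0.164. Among all genes, 21.8% were higher on all 3 days with IL-2 and 16.6% lower on all 3 days with IL-15. The share of genes with both directions was not computed. The IL-15 difference of day 3 was −0.00999, within counting error. Each point is 1 pair of libraries, and the difference between the cytokines was not tested.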

How the results depend on the processing

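Of 143 alternatives for the counts and medians, 122 stayed within the set margin (1.5 times for a count) and 21 moved. A count could not reverse under this rule. Many of the 122 were counts of 0 that stayed 0, so the 122 say little on how firm a call is. The cause of the moves was not tested. The share of all genes called under each alternative is not given here, so nothing is read about the members from these moves. Members called on activation went from 1 to 3 under TMM scaling, with at most 5% mitochondrial UMIs, in non-cycling cells and with mean UMIs per cell, an alternative chosen after seeing the data. On the day 5 step without cytokine they went from 3 to 5 under the latter 3. On day 3 against no cytokine, 7 calls became 3 under TMM scaling or with totals leaving out ribosomal protein and mitochondrial genes, and 2 with a pseudocount of 10 CPM. These calls are summed over comparisons that share 1 library, and Snhg5 and Snhg15 each enter the 7 more than once. IL-2v against IL-15 went from 0 to 1 in non-cycling cells and 2 without day 3. Day 10 against day 3 went from 1 to 0 under TMM scaling or the pseudocount of 10 CPM, and to 2 with at most 5% mitochondrial UMIs or in non-cycling cells. Members higher in cycling cells went from 2 to 1 with totals leaving out ribosomal protein and mitochondrial genes. The median share of cells with a member UMI went from 96.9% to 84.2% at 1000 UMIs and 99.4% unthinned. The median correlation among members went from 0.43 to 0.418 (Spearman) and 0.361 (the reduced totals). Each condition was 1 library, so no fit by replicate number was made; conditions matched by day, dose or cytokine were described pair by pair, with no paired test run. Depth limits Snhg5 most, with 249 UMIs in its lowest library.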
